A study of Mus musculus with 6 samples.

Results

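The wild type mRNA library of pachytene spermatocytes is 1 of the 6 libraries in the study and the only one of wild type mRNA; every value below comes from it. Pachytene spermatocytes are the germ cells of the testis in the long pachytene stage of meiotic prophase, taken here from testes of wild type mice, and the labels name no transgene or treatment; for these mice no source used here gives strain, age or number of animals. RNA longer than 200 nt was selected with oligo(dT) from 1 µg, amplified over 15 PCR cycles and read as 75 bp paired ends. The deposited table gives read counts for 21310 Ensembl genes, and those of this library sum to 8222671. With 1 library there is no replicate and no test. Intervals are 95% Wilson intervals on a share of reads and speak for counting error alone, and a count of 0 is given the limit of 3 reads in place of an interval; without molecular identifiers, PCR copies of a molecule are counted separately.

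In pachytene, homologous chromosomes are fully synapsed, crossovers are made, and transcription of the autosomes is very active. Many of the messages made then are bound by RNA-binding proteins and stored for use after the meiotic divisions. The X and Y chromosomes, which lack a full partner, are gathered in the sex body and silenced. Germ cells of this stage also make abundant piRNAs, short RNAs bound by PIWI proteins.

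Reads are given as CPM, the counts of a gene per 1000000 counts of the library. The reads of a gene grow with the length of its transcript as well as with the number of its molecules, and transcript lengths were not used here. The order of genes below is therefore an order of reads and not of molecules.

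All 4 genes that mark this stage were abundant. Ldhc, the germ cell lactate dehydrogenase, had 40013 reads or 4866 CPM (4819 to 4914) and took more reads than any other gene. Ybx2, a Y-box protein that packages stored mRNA, had 2370 CPM, and Tdrd6, a tudor protein of the chromatoid body, had 2162 CPM. Piwil1, the PIWI protein that binds pachytene piRNAs, had 1139 CPM. They ranked 1 (Ldhc), 8 (Ybx2), 14 (Tdrd6) and 50 (Piwil1) by reads. These 4 genes were set as markers beforehand, and how far spermatids add to their reads was not tested.

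The 30 genes with most reads combined germ cell genes with cytoskeletal and general ones. After Ldhc came Dnah8, a heavy chain of axonemal dynein encoded by a very long mRNA, with 38775 reads or 4716 CPM (4669 to 4763). Slc2a3, a glucose transporter, had 3917 CPM (3874 to 3960). Atp8b3, a phospholipid transporter of the acrosome region, had 2928 CPM (2891 to 2965). Ldhc and Dnah8 stood close together, but the intervals of these 4 genes did not overlap. Lower in the order came Fhl4, a LIM domain protein (2507 CPM), Phf7, a PHD finger protein (2437 CPM), Ybx2, Ybx3, a second Y-box protein (2269 CPM), and Hspa2, the germ cell heat shock protein that acts in meiosis (2246 CPM).

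Structural genes of the sperm tail and centrosome followed with Odf2, an outer dense fibre protein (2185 CPM). The alpha tubulins Tuba3b (2183 CPM) and Tuba3a (1969 CPM) are near-identical copies, so how reads were divided between them is uncertain. Rsph1, a radial spoke protein (1668 CPM), and Dnah17, a second axonemal dynein heavy chain (1637 CPM), were also among the 30, as was Dync1h1, the cytoplasmic dynein heavy chain (1738 CPM). Proteins of translation and protein turnover were represented by Pabpc1, which binds poly(A) tails (2183 CPM), Eef2, an elongation factor (1791 CPM), and the ubiquitin ligase Trip12 (1855 CPM). Tcp1, a chaperonin subunit, had 1747 CPM, and Nasp, a histone chaperone, had 1579 CPM. Adam5 (1606 CPM) and Crisp2 (1442 CPM), genes of sperm surface and sperm head proteins, stood next to Prrc2a (1723 CPM), Lyar (1522 CPM), Atxn2l (1507 CPM) and Ccdc136 (1463 CPM). Clu, which encodes clusterin and is made in quantity by Sertoli cells, ranked 17 with 1828 CPM (1799 to 1857) and was the only one of the 30 on a somatic cell list.

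No single gene dominated the library. Ldhc held 0.487% of reads (0.482 to 0.491), the 10 highest genes together 3.16% (3.15 to 3.17), the 100 highest 13.9% (13.9 to 14.0) and the 1000 highest 48.0% (48.0 to 48.0). Of the 19787 genes with a read, 57 held 10% of all reads, 282 held 25%, 1097 held 50% and 5926 held 90%. The exponential of the Shannon entropy, the number of equally abundant genes that would be as diverse, was 5211. At 1 CPM, which is 8.22 reads here, 15155 genes passed (71.1% of rows). At 10 CPM 9762 passed (45.8%), at 100 CPM 2530 (11.9%) and at 1000 CPM 61 (0.286%). The 2530 genes at 100 CPM or more took 70.1% of reads, and the median over all rows was 7.42 CPM. No read was counted for 1523 rows. By exact formula, 18716 genes would be expected to have a read at 50% of this depth and 17548 at 25%, against 19787 at the full depth.

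**Figure D1:**
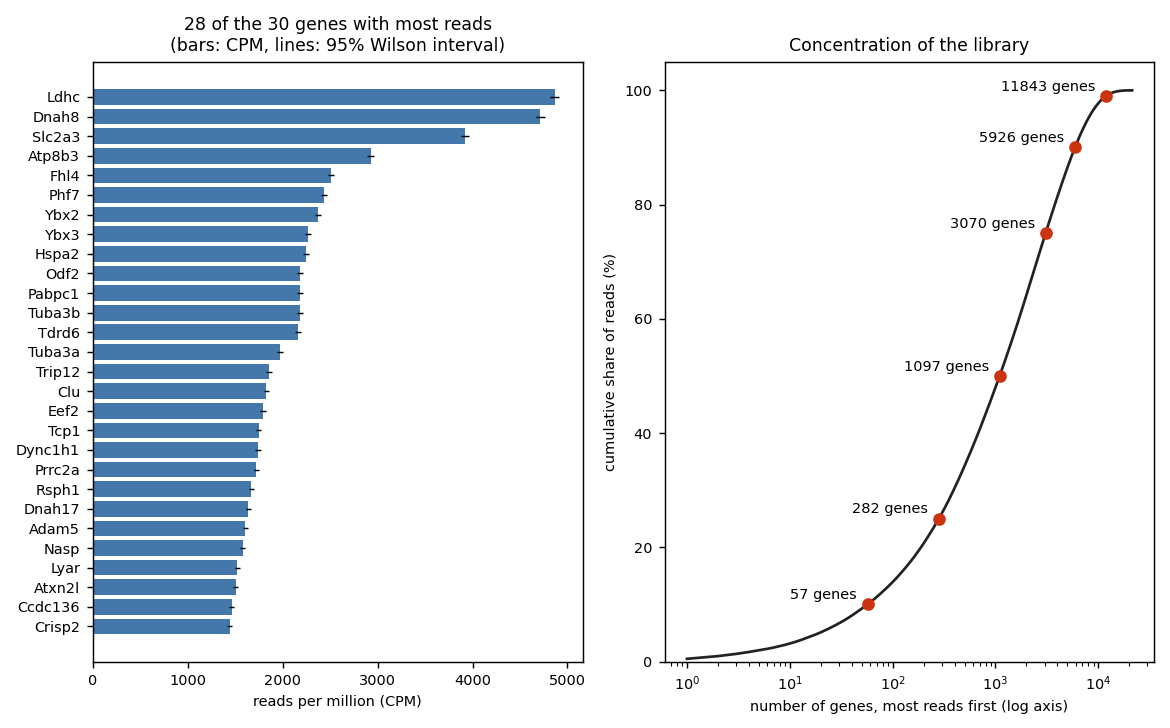
Left: CPM for 28 of the 30 genes with most reads in the wild type library (bars, with 95% Wilson intervals). Right: cumulative share of reads (percent) against the number of genes, most reads first, on a log axis. Ldhc leads at 4866 CPM, and 1097 genes hold 50% of the reads.

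Protein-coding genes took nearly all reads. By RefSeq class, 16172 protein-coding genes held 94.0% of reads with a median of 13.7 CPM, 1009 long noncoding RNA genes held 1.00% with a median of 1.09 CPM, and 1231 pseudogenes held 1.32% with a median of 0.730 CPM. The long noncoding RNA gene with most reads was 1700028J19Rik at 596 CPM, rank 197, and the pseudogene with most reads was Dynlt1-ps1 at 643 CPM, rank 164. Genes still named as RIKEN clones, 948 in number, held 2.49% of reads, and 57 of them passed 100 CPM, with C530008M17Rik (1130 CPM) first. The 2414 genes named as predicted held 1.96%, and 440 of them had no read. A further 1462 identifiers had no symbol in the name table and held 1.66% of reads. ENSMUSG00000078295 led these with 1156 CPM, rank 49.

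Symbols that share their first letters gave a second view of the composition. Of 588 such families with 5 or more members, the solute carriers (Slc) held the most reads, 1.54%, but over 351 members. Slc2a3 alone held 0.392%, and the Slc median, 5.47 CPM, was below that of all rows, 7.42 CPM. The Ccdc family of coiled-coil proteins held 1.25% over 128 members, and 34 of these passed 100 CPM. Dnah, the axonemal dynein heavy chains, held 0.920% over only 13 members, with a family median of 290 CPM. The Cfap family, named for cilia and flagella, held 0.658% over 27 members, of which 26 passed 10 CPM and 18 passed 100 CPM, with a median of 132 CPM. The other families among the 12 with most reads were Zfp (1.07% over 349 members), Fam (0.876%), Tmem (0.845%), Atp (0.801%), Eif (0.794%), Rnf (0.634%), Ppp (0.598%) and Wdr (0.577%), with medians between 10.5 CPM (Zfp) and 82.8 CPM (Eif).

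Germ cell programmes were read from lists of named genes, each set beside all rows of the table, where 45.8% passed 10 CPM, 11.9% passed 100 CPM and the median was 7.42 CPM. The piRNA pathway list held 0.805% of reads (0.798 to 0.811). Of its 23 genes 22 passed 10 CPM and 15 passed 100 CPM, with a median of 162 CPM. Tdrd6 was followed by Mael, needed for transposon silencing and piRNA precursor handling (1161 CPM), and Piwil1, with Ddx4, the germ cell RNA helicase, at 597 CPM. Piwil2, the PIWI protein also present in earlier germ cells, had 304 CPM. Piwil4, the PIWI protein of fetal male germ cells, had 4 reads (0.486 CPM, 0.189 to 1.25) and was the only member under 10 CPM.

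RNA-binding proteins of stored mRNA held 0.981% of reads over 20 genes, of which 18 passed 10 CPM (median 127 CPM). Ybx2, Ybx3 and Pabpc1 each exceeded 2000 CPM and stood apart from the next member, Larp1, at 761 CPM. Ddx25, a helicase of the chromatoid body, had 601 CPM and Dazl, a germ cell translation factor, 74.8 CPM.

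Genes of synapsis and recombination took fewer reads, 0.308% over 33 genes. Of these 23 passed 10 CPM and 9 passed 100 CPM, with a median of 21.5 CPM. The structural members led: Stag3, a meiotic cohesin subunit, had 723 CPM, Sycp2, a protein of the synaptonemal complex axis, 603 CPM, and Syce1, a protein of its central element, 423 CPM. Spo11, which makes the meiotic DNA breaks, had 128 CPM. Some genes of early prophase had few reads. Dmc1, the meiotic recombinase, had 34 reads (4.13 CPM), and Mnd1, its cofactor, 19 reads (2.31 CPM). Prdm9, which sets break sites, had 7 reads (0.851 CPM), and Mei4, a break formation protein, 3 reads (0.365 CPM). Other members had more, as Spo11 did: Psmc3ip had 141 CPM, Hormad1 67.9 CPM and Tex15 58.4 CPM. Sycp3 and Spata22 were not analysed here.

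The list of late pachytene and division genes held 0.932% of reads over 18 genes (median 145 CPM), and 0.445% without Ldhc. Hspa2 came next, before Nek2, a centrosomal kinase, with 518 CPM. Ccna1, the meiotic cyclin A, had 219 CPM, whereas Ccna2, its mitotic form, had 4.74 CPM. Cdk1, the kinase of the division, had 61.4 CPM and Ccnb1, one of its cyclins, 18.2 CPM. Hist1h1t, the testis linker histone, had 22 reads (2.68 CPM). Of all 54 histone genes in the table, 11 passed 10 CPM and 7 had no read, and the variants H3f3b (395 CPM), H2afy (165 CPM) and H3f3a (116 CPM) had most. Selection with oligo(dT) depletes messages without a poly(A) tail, so low histone counts, that of Hist1h1t included, do not measure expression. How far the selection lowered them was not tested.

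Transcription regulators of meiosis and spermatids held 0.571% over 23 genes, of which 22 passed 10 CPM and 14 passed 100 CPM (median 137 CPM). Meig1, a meiosis expressed gene needed in spermatids, had 1160 CPM, Rfx2, a factor of cilia and spermatid genes, 611 CPM, and Zfp541, a zinc finger protein of late prophase, 524 CPM. Mybl1 (A-MYB), the factor that drives pachytene piRNA precursors and many meiotic genes, had 1125 reads (137 CPM), and Crem, an activator of spermatid genes, 178 CPM. Ctcfl, a germ cell relative of CTCF, had 3.65 CPM and was the only member under 10 CPM.

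Genes whose proteins serve after meiosis had many reads. The list of acrosome, sperm surface and early spermatid genes held 0.982% of reads, and all 32 of its genes passed 10 CPM (14 passed 100 CPM, median 70.1 CPM). Adam5, Crisp2 and Adam3 (1371 CPM) led, followed by Clgn, a chaperone of sperm surface proteins (1125 CPM), while Acr, the acrosomal protease, had 221 CPM. Genes of elongating spermatids held 0.432%, and 0.213% without Odf2; all 17 passed 10 CPM. The protamines Prm1 (168 CPM) and Prm2 (249 CPM) and the transition proteins Tnp1 (226 CPM) and Tnp2 (303 CPM) replace histones in spermatids. Their reads can come from spermatids in the preparation or from the spermatocytes, and these cannot be told apart in a bulk library.

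Most spermatogonial genes were low, with exceptions. The list held 0.122% of reads, but 0.0192% without Dmrtb1 (1030 CPM), a regulator of meiotic entry. Of its 20 genes 7 passed 10 CPM, and the median was 4.86 CPM, below that of all rows. After Dmrtb1, those with most reads were Uchl1, a ubiquitin hydrolase (49.0 CPM), Etv5, a transcription factor of stem cell renewal (43.2 CPM), and Id4, a stem cell marker (26.8 CPM), which lay above the median of all rows, 7.42 CPM. Kit, the receptor of differentiating spermatogonia, had 99 reads (12.04 CPM) and Gfra1, the receptor of the stem cell pool, 63 reads (7.66 CPM). Stra8, which starts meiosis, had 45 reads (5.47 CPM) and Nanos2, a stem cell factor, 3 reads (0.365 CPM).

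Marker genes of the somatic cells of the testis differed widely in their reads. In such a bulk sample, fewer cells of a type and less RNA per cell cannot be told apart. Whether germ cells made some of the reads of these markers was not tested. Sertoli cell genes held 0.427% of reads (0.423 to 0.431), and 0.244% without Clu; 18 of 21 passed 10 CPM and 9 passed 100 CPM, with a median of 53.0 CPM. Below Clu stood Ctsl, a protease (577 CPM), and Amhr2, the receptor of anti-Müllerian hormone (454 CPM). Among defining Sertoli genes, Cst9 had 2150 reads (261 CPM), Aard 1449 (176 CPM), Wt1, a transcription factor, 863 (105 CPM), Gata4 436 (53.0 CPM) and Sox9 383 (46.6 CPM). Fshr, the FSH receptor, had 68 reads (8.27 CPM) and Amh, the anti-Müllerian hormone of immature Sertoli cells, 43 (5.23 CPM). Not one of the 21 was at 0, but 24 were named, and Rhox5, Trf and Sox8 were not found by symbol.

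Leydig cell genes held 0.0297% over 10 of 11 genes named, since Insl3 was not found by symbol. Scarb1, a lipoprotein receptor also found outside Leydig cells, took 40.8% of that and had 121 CPM. The steroid enzymes Cyp17a1 (241 reads, 29.3 CPM) and Cyp11a1 (99 reads, 12.04 CPM) and the cholesterol carrier Star (100 reads, 12.2 CPM) were present, and Lhcgr, the LH receptor, had 5 reads. Peritubular and stromal genes held 0.0166%, most of it from Mylk (105 CPM). Actg2, a smooth muscle actin, had 35.9 CPM, while Acta2, its main form in myoid cells, had 19 reads (2.31 CPM) and Des 4 reads.

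Macrophage and immune genes held 0.0104%, of which Mrc1, a mannose receptor, took 91.3% (94.7 CPM). Without Mrc1 the list held 9.00e-04%: Csf1r and Cd68 had 4 reads each, Ptprc 2, C1qa 1 and C1qc none, which allows up to 0.365 CPM (3 reads). Endothelial genes held 0.00440% over 9 genes, with 60 reads for Cdh5 and 18 for Pecam1. Of 9 red cell genes named 5 were found by symbol. Hba-a1 had no read, and Hbb-bs and Hbb-bt had 1 read each. The 70 genes of the 6 somatic lists together held 0.488% of reads (0.483 to 0.493), and 0.305% without Clu; their part in the reads of genes that germ cells also express was not tested. The list of epididymis and other organs held 0.00111% over the 9 genes found of 16 named, with Adam7, Apoa1 and Krt5 at 0. Receptors of smell and pheromones held 0.00372% over 140 genes, of which 64 had no read.

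**Figure D2:**
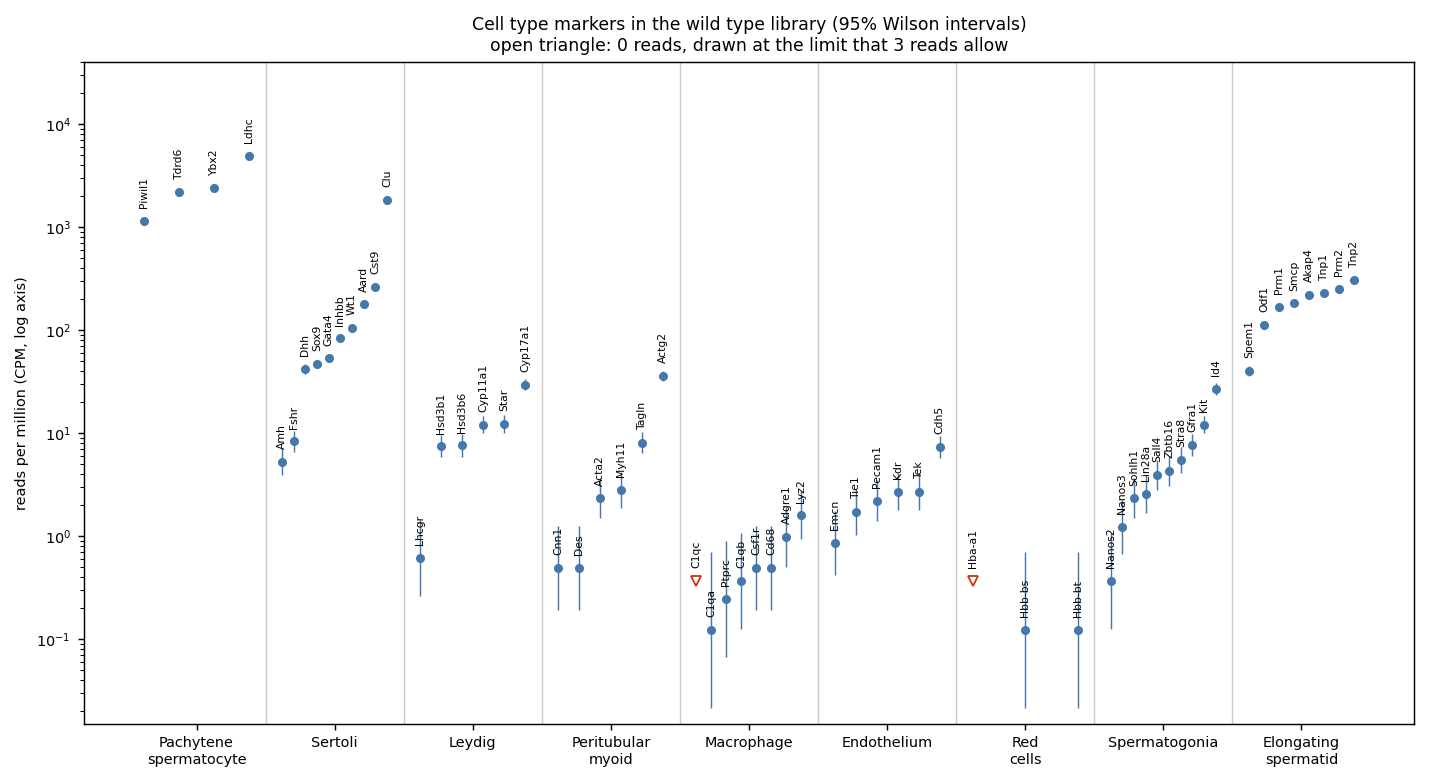
CPM (log axis) for a shorter set of markers of each cell type in the wild type library, with 95% Wilson intervals; open triangles mark 0 reads, drawn at the limit that 3 reads allow. The 4 pachytene markers lie above 1000 CPM, Sertoli markers range from 5.23 to 1828 CPM, and the macrophage and red cell markers drawn lie at or under 1.58 CPM; Mrc1 (94.7 CPM) and Cx3cr1 (2.80 CPM) of the longer macrophage list are not drawn.

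Among general cell functions, heat shock proteins and the chaperonin held 1.20% of reads over 35 genes, with Hspa2, Tcp1 and Hspa4l (880 CPM) first and a median of 147 CPM. Translation factors held 1.12% over 66 genes, led by Eef2, Eef1a1 (1080 CPM) and Eif4g2, a factor of cap-independent initiation (965 CPM). Zinc finger proteins held 1.17% but over 369 genes, with a median of 10.9 CPM. Splicing and RNA packaging proteins held 0.842% (Hnrnpu 869 CPM, Hnrnpul1 602 CPM, Prpf8 491 CPM) and RNA helicases 0.733%, where Ddx25, Ddx5 (597 CPM) and Ddx4 had almost equal reads. The ubiquitin system was broad: conjugating genes held 0.518% (Ubb 1361 CPM), deubiquitinases 0.574% (Usp1 743 CPM) and the proteasome 0.543%. In the proteasome, 40 of 47 genes passed 10 CPM, with Psmc3, an ATPase subunit (810 CPM), and Psme4, the activator known from germ cell histone turnover (718 CPM), first.

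The axoneme list of dyneins and tektins held 1.06% over 21 genes, and 0.590% without Dnah8, with a median of 207 CPM. Tubulins and the gamma-tubulin complex held 0.575%, mainly Tuba3b, Tuba3a and Tubb4b (966 CPM). Kinesins held 0.336% over 37 genes, led by Kif9, a motor of the flagellum (573 CPM), and Kif3b, a motor of intraflagellar transport (531 CPM). DnaJ cochaperones held 0.381%, with Dnajb1 (444 CPM) first. Among the nuclear genes of the respiratory chain, 69 of 81 passed 10 CPM (0.677% of reads, median 57.6 CPM), and the 3 with most reads were the testis isoform Cox8c (513 CPM), Atp5a1 (399 CPM) and the testis isoform Cox6b2 (350 CPM). The 72 genes of the mitochondrial ribosome held 0.237%, led by Mrpl39 (143 CPM), with 58 over 10 CPM.

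Cytosolic ribosomal protein genes held 0.381% of reads (0.376 to 0.385) over 77 genes, with 48 over 10 CPM and a median of 18.97 CPM. Rplp0 (429 CPM), Rpl8 (327 CPM) and Rpl4 (294 CPM) led, and the germ cell copies Rpl39l (284 CPM) and Rpl10l (215 CPM) came next. Genes of this list have many processed pseudogenes, and no source used here says how reads that fit several copies were counted, so these counts are uncertain. The same holds for Gapdh, which had 25 reads (3.04 CPM).

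Genes of glucose breakdown had more reads in the germ cell forms, 0.628% over 7 genes, than in the somatic forms, 0.270% over 15 genes. Without Ldhc the germ cell forms held 0.141%. Of this, 0.0687% was Pgam2 (687 CPM), the muscle form of phosphoglycerate mutase, which was counted here with the germ cell forms. Pgk2, the germ cell phosphoglycerate kinase, had 271 CPM. Of the somatic forms, Ldha had 981 CPM, the hexokinase Hk1 513 CPM and the phosphofructokinase Pfkp 354 CPM.

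**Figure D3:**
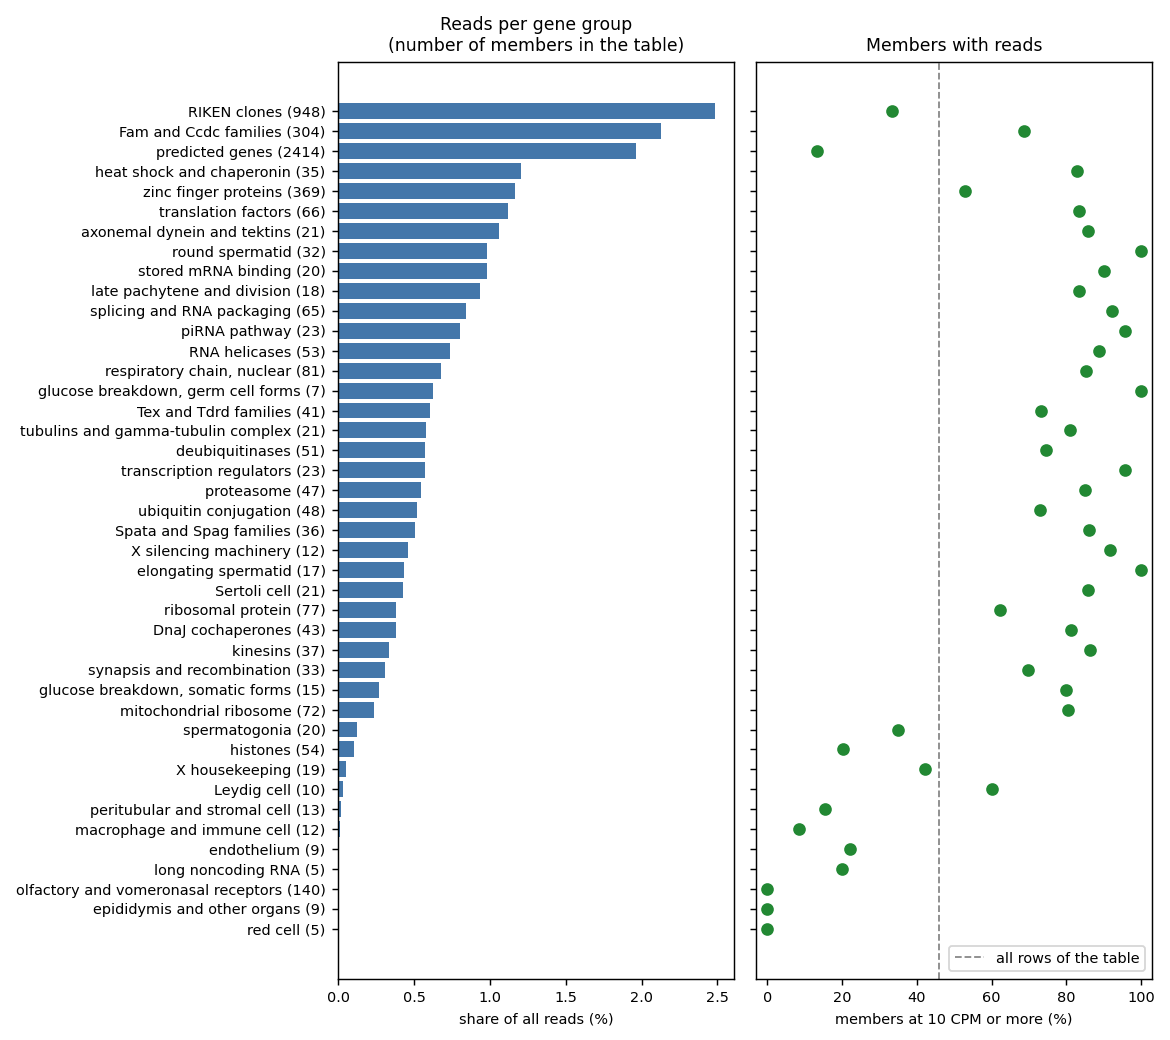
Left: share of all reads (percent) for each gene group in the wild type library, with the number of members in the table. Right: percent of members at 10 CPM or more, against all rows (dashed line, 45.8%); round and elongating spermatid genes stand at 100%, and red cell, smell receptor and other organ genes at 0.

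The X chromosome was poor in reads. Its 1012 genes were 5.41% of the 18694 genes with a chromosome, and they held 0.831% of all reads (0.825 to 0.837), or 0.861% of the reads of genes with a chromosome. Their mean was 8.21 CPM, where the autosomes ranged from 41.1 CPM (chromosome 13) to 78.9 CPM (chromosome 17). The median X gene had 1.95 CPM, against 6.93 to 16.7 CPM over the 19 autosomes. At 10 CPM 19.9% of X genes passed, against 45.1% to 58.2% on the autosomes. At 100 CPM 9 X genes passed (0.889%), against 10.8% to 16.7% of the genes on each autosome. The X thus lay outside the range of the autosomes on each of these measures, by mean 6.59-fold below the autosomes as a whole. X genes with a read were common, since 57.3% passed 1 CPM, against 71.1% to 81.4% on the autosomes.

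The X gene with most reads was Maged1, a melanoma antigen family member, with 2526 reads (307 CPM), rank 625 in the table. Akap4, the main scaffold of the sperm fibrous sheath, followed with 1807 reads (220 CPM). Hdac6, a tubulin deacetylase, had 158 CPM, Nxf3, a germ cell relative of the mRNA export factors, 155 CPM, Usp9x, a deubiquitinase, 146 CPM, Zmym3 127 CPM, the ubiquitin ligase Huwe1 114 CPM and the pseudogene Gm14857 106 CPM. The 10 highest X genes held 18.4% of X reads and 61 genes held 50%. Genes on the somatic cell lists added little: 3 X genes were on them, with 0.796% of X reads. Of the 19 X-linked housekeeping genes in the table, 8 passed 10 CPM (42.1%), a larger share than of all X genes (19.9%) and near that of all rows (45.8%). Usp9x led them, before Uba1, which activates ubiquitin (93.3 CPM), and Ogt, a glycosyltransferase (60.3 CPM). Lower members were Hprt, of purine salvage, with 75 reads (9.12 CPM) and the ribosomal gene Rps4x with 26 reads (3.16 CPM). The 8 Y genes in the table held 0.00635% of reads, with 157 reads for Eif2s3y, 126 for Uba1y (15.3 CPM), 93 for Ddx3y (11.3 CPM) and 51 for Uty (6.20 CPM).

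**Figure D4:**
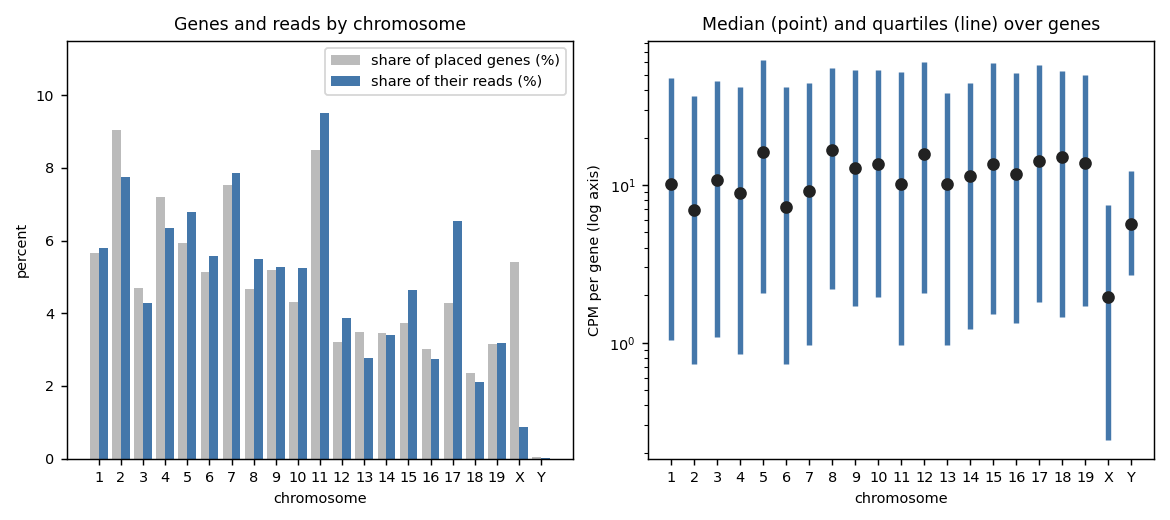
Left: percent of the genes with a chromosome (grey) and percent of the reads of those genes (blue) for each chromosome. Right: median (point) and quartiles (line) of CPM per gene on a log axis; the X has 5.41% of genes, 0.861% of their reads and a median of 1.95 CPM.

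Several X genes have autosomal copies known to be made in male germ cells. Of 11 pairs named, 7 had both copies found by symbol, and in each of the 7 the autosomal copy had more reads. In each of the other pairs a copy was not found by symbol, so they could not be compared. Of the copies found in those pairs, the autosomal G6pd2 had 2 reads (0.243 CPM) and Ubl4b 161 (19.6 CPM). The X genes Cstf2 and Utp14a had 238 (28.9 CPM) and 54 (6.57 CPM). Pgk1, the X-linked phosphoglycerate kinase, had 32 reads (3.89 CPM) and Pgk2 2232 (271 CPM). Pdha1, of pyruvate dehydrogenase, had 30 reads (3.65 CPM) and Pdha2 1939 (236 CPM). The centrin Cetn2 had 28 reads (3.41 CPM) and Cetn1 4494 (547 CPM). The ribosomal Rpl10 had 23 reads (2.80 CPM) beside 1771 for Rpl10l, and Rpl39 had 15 reads (1.82 CPM) beside 2334 for Rpl39l. Fam50a had 18 reads (2.19 CPM) and Fam50b 1658 (202 CPM). The pair Rbmx (72 reads, 8.76 CPM) and Rbmxl2 (352 reads, 42.8 CPM), which encodes RNA-binding proteins, was the closest. These are reads without scaling for length, and copies of a pair are alike in sequence, so some reads may have been counted for the other copy.

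**Figure D5:**
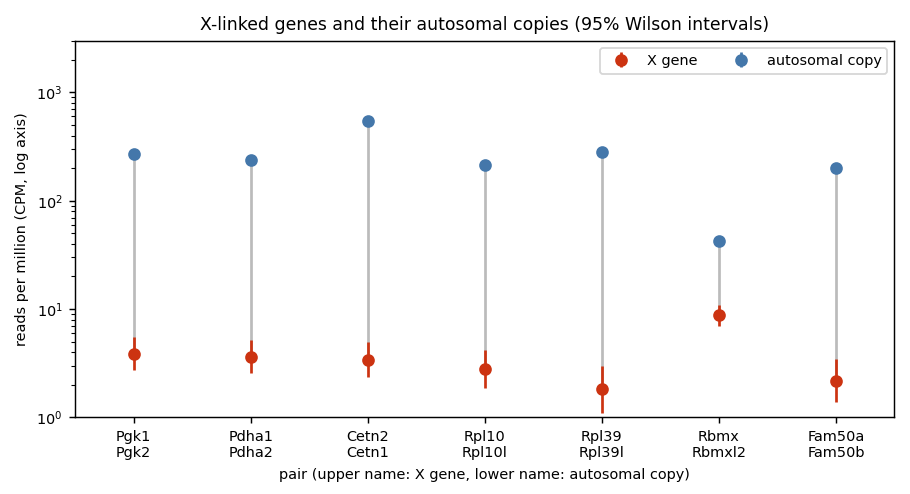
CPM (log axis) of X genes (red) and their autosomal copies (blue) in the wild type library, with 95% Wilson intervals. In all 7 pairs the autosomal copy lies above the X gene, from 42.8 against 8.76 CPM (Rbmxl2 and Rbmx) to 547 against 3.41 CPM (Cetn1 and Cetn2).

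The list drawn up for silencing of the sex chromosomes held 0.459% of reads over 12 genes, with a median of 42.9 CPM. It held 0.234% without Hspa2, a heat shock protein that the division list holds too and whose part in silencing was not tested. Its lower members included Brca1 (15.8 CPM) and Hus1 (14.8 CPM). Trim28, a corepressor, had 764 CPM, Atr, the kinase of the sex body, 732 CPM, Mdc1, which spreads its signal, 543 CPM, and H2afx, its histone target, 51.0 CPM.

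Chromosome 17, which carries the t-complex with many genes of male fertility, had the highest mean of all chromosomes, 78.9 CPM over 800 genes, before chromosome 15 with 64.1 CPM. It held 4.28% of the genes with a chromosome and 6.54% of their reads, and 6 of the 30 genes with most reads: Dnah8, Tdrd6, Tcp1, Prrc2a, Rsph1 and Crisp2. Its median, 14.2 CPM, was within the range of the other autosomes. Without the genes of the top 30 on each chromosome the mean was 62.6 CPM, against 58.9 CPM on chromosome 15.

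Promoters were described for the genes with a single start listed in RefSeq (GRCm38.p6), 11163 of the 13730 genes of the table with a promoter, over the 250 bases before the start. The MYB element was searched on both strands as CAACTG and as CAACGG, and with the first base changed as TAACTG and also as TAACGG. It was in 28.4% of 605 promoters among the 1000 genes with most reads and in 41.2% of 51 among the 100 highest. The share was 21.8% of all 11163, 21.6% of 2568 promoters of genes under 1 CPM, and 23.7% of all 22862 promoters with a single listed start. The CRE, TGACGTCA, which CREM binds, was in 2.48% of the 605 promoters, 1.96% of the 51 and 2.36% of the 11163. The shorter run TGACGT, which each full CRE also holds, was in 10.6%, 7.84% and 8.81% of them. The RFX site GTTGCC was in 14.9% of the 605, 19.6% of the 51 (10 promoters) and 10.7% of the 11163. Among the 30 highest genes it was in 2 of 17 promoters (11.8%), near the share of the 11163. TATAAA was in 6.45% of the 605, 5.88% of the 51 and 8.34% of the 11163. The ratio of observed to expected CG had a median of 0.797 in the 605 promoters, 0.649 in the 11163 and 0.298 in genes under 1 CPM, so base composition differed between these classes too. A match is only a run of letters, and no binding was measured.

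Of the 30 genes with most reads 17 had a single listed start, and 7 of these promoters held the MYB element; they are shown as examples of it. For each, the match nearest the start is shown with up to 26 bases on either side, 5′ to 3′ on the strand of the gene, with the match in capitals. In Phf7, Hspa2 and Nasp the capitals are the element as it reads from the other strand.
Dnah8: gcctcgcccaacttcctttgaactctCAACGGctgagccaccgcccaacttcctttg
Phf7: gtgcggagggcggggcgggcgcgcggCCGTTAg
Hspa2: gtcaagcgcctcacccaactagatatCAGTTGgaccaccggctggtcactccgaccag
Tcp1: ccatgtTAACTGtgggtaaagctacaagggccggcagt
Prrc2a: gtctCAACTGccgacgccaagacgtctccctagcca
Nasp: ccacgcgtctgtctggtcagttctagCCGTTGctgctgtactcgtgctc
Lyar: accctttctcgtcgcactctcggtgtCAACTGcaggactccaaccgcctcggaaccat

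These lie at chr17:30626879-30626935 (plus strand) for Dnah8, chr14:31251316-31251348 (minus) for Phf7 and chr12:76404232-76404289 (plus) for Hspa2. Those of Tcp1 and Prrc2a lie at chr17:12916079-12916116 (plus) and chr17:35165092-35165127 (minus). Nasp has chr4:116627952-116628000 (minus) and Lyar chr5:38220359-38220416 (plus). In Phf7 the match ended 1 base before the start, in Nasp 17 and in Dnah8 25, whereas in Lyar it lay 91, in Hspa2 106, in Tcp1 238 and in Prrc2a 240 bases away. Dnah8, Phf7, Hspa2 and Nasp held 2 matches each within the 250 bases.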

How the data were processed

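Per the labels' protocols, mRNA of 1 wild type pachytene spermatocyte preparation was selected with oligo(dT) and sequenced. The deposited table holds whole-number counts per Ensembl gene, made by the authors; the submitters' processing notes list CASAVA 1.3, Novoalign, TopHat, bedtools and the build mm9 but give no role for any. No source used here gives the counting settings, strand use or treatment of reads with several positions, so overlapping, antisense and near-identical genes are uncertain. The other column of the table and the small RNA files were not used.

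Counts were divided by their total (8222671) to give CPM; 1 read is 0.122 CPM. Of 21310 identifiers 19848 matched a symbol and 18694 a RefSeq symbol with a chromosome (GRCm38.p6, used for chromosomes and for the promoters and their positions, and not to place reads). Mitochondrially encoded genes were not analysed here. Shares have 95% Wilson intervals. List members whose symbol was not found were left out of all values of a list. The computations were tested on simulated data. Named were the 30 highest genes and the 3 highest of each list (some of these are not reported here), those at 0, cell type markers, the highest sex-linked genes, pairs and the 12 largest symbol families. Other list members named were chosen after their values were seen, and the members and lists with earlier results of these data known. The work used Python 3.11.15 with matplotlib 3.10.9, scipy 1.17.1, pandas 2.3.3 and numpy 2.4.6.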

Additional observations from a re-analysis of the deposited data

How the results depend on the processing

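No paired analysis was possible because the wild type mRNA is 1 library, and for the same reason no library could be left out. Scaling by transcript length was not run, since no transcript or coding lengths were at hand, so all shares weigh long transcripts more. The number of genes that hold 50% of reads stayed between 1015 and 1108, and the number at 1 CPM or more between 13624 and 15154, when rows without a symbol, predicted genes with RIKEN clones and pseudogenes, ribosomal protein genes, the highest gene or somatic list genes were left out (the last chosen after seeing the data). Floors of 0.5 and 5 CPM gave 16424 and 11654 genes. The share of the 10 highest genes was 3.21% of rows with a symbol, 3.32% without predicted genes, RIKEN clones and pseudogenes, 3.17% without ribosomal protein genes, 2.90% without Ldhc and 3.17% without somatic list genes. The X share was 0.845% of rows with a symbol and 0.697% without predicted genes, RIKEN clones and pseudogenes. Of 42 gene lists, 17 had a share that fell by a factor of over 1.5 without their highest member. Among them were tubulins (0.357% without it), histones (0.0645%), the Tex and Tdrd families (0.387%) and somatic forms of glucose breakdown (0.172%).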
